A study of Mus musculus with 9 samples.

Results

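The transcripts described here encode the subunits of the interleukin-12 (IL-12) family of cytokines in mouse bone marrow-derived dendritic cells (DCs). They are *Il12a*, *Il12b*, *Il23a*, *Il27* and *Ebi3*, chosen by gene symbol alone. These are 5 of the 55471 genes in the deposited counts, and each symbol had 1 row. DCs were grown from the bone marrow of wild-type C57BL/6 mice with GM-CSF (20 ng/mL), a growth factor that drives marrow precursors to DC- and macrophage-type cells. The methods of the study give female mice of 8 to 20 weeks for its experiments. For 6 h the cells were left unstimulated, were activated with LPS (100 ng/mL), a bacterial cell wall component sensed by TLR4, or were treated with IFN-β (1000 U/mL), an antiviral interferon. There were 3 libraries, lettered A, B and C, for each condition. None of the groups carried a deletion or a transgene.

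Cytokines of this family are secreted heterodimers, so a cell must express a pair of genes to make any 1 of them. IL-12 pairs p35 (*Il12a*) with p40 (*Il12b*), and IL-23 pairs p19 (*Il23a*) with the same p40. IL-27 pairs p28 (*Il27*) with EBI3 (*Ebi3*), and IL-35 pairs p35 with EBI3. DCs and macrophages are major sources of IL-12, IL-23 and IL-27, which direct T cells and NK cells: IL-12 toward interferon-γ production, IL-23 toward IL-17 production, and IL-27 toward both activating and restraining programs. RNA levels are given here, not protein.

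Between 33425803 and 43735199 counts per library fell on genes. Expression is given as CPM, counts scaled to a common library size with TMM factors, which also correct for composition. At this depth, 3 counts in 1 library correspond to 0.0674 to 0.106 CPM, and lower levels cannot be told from absence. All 6 genes of an LPS stimulation list rose with LPS, and 4 of the 6 also rose with IFN-β. All 8 genes of an interferon list rose with both stimuli. At an edgeR adjusted p under 0.05, 32.8% of all tested genes rose with LPS and 23.6% with IFN-β. The summed level of 8 DC markers was 5091 to 6193 CPM in unstimulated, 7269 to 8207 CPM in LPS-activated and 5813 to 6144 CPM in IFN-β-treated libraries, with *Flt3* the lowest of them in unstimulated DCs (3.06 CPM). The 5 macrophage markers were also well expressed and none was at 0 (1662 to 2104, 1864 to 2416 and 2365 to 2692 CPM in the same order). The 7 neutrophil markers summed to 9.48 to 20.98 CPM in unstimulated, 12.5 to 23.4 CPM in LPS-activated and 8.98 to 17.3 CPM in IFN-β-treated libraries. *Elane* was at or under 3 counts in every library. *Camp* had a mean of 0.0713 CPM in unstimulated, 0.896 CPM in LPS-activated and 0.154 CPM in IFN-β-treated libraries. It entered the edgeR test only through its LPS libraries. Its call with LPS (log2 fold change 3.59, edgeR adjusted p = 3.2e-05) thus follows from the filter and is a description. The 5 T cell markers summed to 0.269 to 0.474, 3.08 to 4.02 and 0.773 to 1.60 CPM in the same order. Most of this was *Lck*, which rose from 0.314 to 3.60 CPM with LPS. *Cd3e*, *Cd3g* and *Trac* were at or under 3 counts in every library, and *Cd3d* reached at most 0.0898 CPM. The B cell, NK cell, mast cell and basophil, and erythroid lists reached at most 0.389, 0.279, 0.276 and 0.0291 CPM in any library, with *Cd79a* (up to 0.212 CPM) and *Klrb1c* (up to 0.279 CPM) among the genes detected. The 3 stromal markers summed to 2.07 to 2.93, 3.09 to 6.55 and 2.27 to 3.76 CPM. The part of these cell types in the results was not tested.

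Under LPS every subunit gene was higher in all 3 libraries than in any unstimulated library. *Il12b*, *Il12a*, *Il23a* and *Il27* went from low or barely detected levels to far higher ones, and *Ebi3* rose from a substantial starting level. With edgeR's quasi-likelihood test and Benjamini-Hochberg adjustment over 16260 genes, 5 of 5 members were past an adjusted p of 0.05. By the same threshold 68.2% of all tested genes changed with LPS and 32.8% rose, and 34.6% had all 3 LPS libraries above all unstimulated ones. *Il12a* and *Il23a* entered the test only through their LPS libraries, so their calls follow from the filter and are descriptions. The exact permutation test over 3 against 3 libraries gave p = 0.1 for each of the 5 genes, the smallest value it can give. In bulk RNA, more cells that express a gene and more RNA per cell cannot be told apart.

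*Il12b* (ENSMUSG00000004296) encodes p40, the subunit that IL-12 and IL-23 share, and lies on chromosome 11 (GRCm38, 44400063 to 44414033, plus strand). It had 3.67, 3.93 and 2.62 CPM in unstimulated libraries A, B and C. In LPS-activated libraries it had 3459, 3822 and 3564 CPM. No library of either group came near the other, and the LPS libraries varied little around their mean of 3615 ± 187 CPM (SD, n = 3). The increase was 1061-fold (log2 fold change 10.05 ± 0.21 SE, adjusted p = 5.3e-10), the 9th largest rise among the tested genes. Between 0.271% and 0.320% of all counts in LPS-activated libraries came from this gene. Per kilobase of exon it ranked 22nd of 16229 genes in LPS-activated DCs, against 9771st in unstimulated DCs.

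*Il12a* (ENSMUSG00000027776) encodes p35, the partner that makes p40 into IL-12, and lies on chromosome 3 (68690644 to 68698547, plus strand). Unstimulated libraries had 3, 3 and 1 counts on it, all at or under the depth limit. LPS-activated libraries had 1638, 2112 and 1861 counts, or 58.0, 61.5 and 57.2 CPM. The 3 LPS libraries were alike, with a mean of 58.9 ± 2.32 CPM (SD, n = 3). Since the unstimulated level rests on 7 counts in all, the rise is given as a ratio of pooled depth-scaled counts, 1081 with a 95% counting interval of 524 to 2690. The fitted log2 fold change was 9.99 ± 0.25 (SE, edgeR adjusted p = 1.1e-09).

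*Il23a* (ENSMUSG00000025383) encodes p19, the partner that makes p40 into IL-23, and lies on chromosome 10 (128296139 to 128298752, minus strand). It had 1, 0 and 0 counts in unstimulated libraries. In LPS-activated libraries it had 448, 818 and 695 counts, or 15.9, 23.8 and 21.4 CPM. Library A was the lowest of the LPS group, and the mean of 20.3 ± 4.08 CPM (SD, n = 3) was the least even of the 3 genes of IL-12 and IL-23. With a single count on the unstimulated side, the ratio of 2645 had a 95% counting interval of 474 to 104519. The fitted log2 fold change of 10.84 ± 0.36 (SE, edgeR adjusted p = 4.7e-09) depends on how that single count is treated. It was 8.39 with a larger prior count of 2 and 12.58 without unstimulated library A.

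*Il27* (ENSMUSG00000044701) encodes p28 of IL-27 and lies on chromosome 7 (126589010 to 126594941, minus strand). Its levels were 1.01, 0.764 and 0.541 CPM in unstimulated libraries and 208, 182 and 151 CPM in LPS-activated libraries. The unstimulated level was low but above the depth limit in each library, with 24 to 40 counts. *Il27* rose 234-fold with LPS (log2 fold change 7.87 ± 0.21 SE, edgeR adjusted p = 1.2e-09). Its exons overlap those of *Apobr* on the opposite strand over 103 of 1021 bases, and the strand setting of the counting is not given in the sources used here. *Apobr* fell by 0.55 (log2) with LPS, from 95.3 to 65.1 CPM, against means of 0.773 and 180 CPM for *Il27*. Whether reads of *Apobr* add to the low unstimulated level of *Il27* was not tested.

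*Ebi3* (ENSMUSG00000003206) encodes the EBI3 subunit of IL-27 and IL-35 and lies on chromosome 17 (55952640 to 55957022, plus strand). It had 24.8, 20.2 and 20.2 CPM in unstimulated libraries and 101, 91.6 and 88.1 CPM in LPS-activated libraries. *Ebi3* was therefore the 1 subunit gene expressed at more than 20 CPM before stimulation. Its rise was 4.30-fold (log2 fold change 2.11 ± 0.10 SE, edgeR adjusted p = 3.3e-08), the 1068th largest among the tested genes. Its exons overlap the antisense gene *Gm16712* over 270 of 1154 bases. That gene held 0.995 CPM in LPS-activated DCs, against 93.4 CPM for *Ebi3*.

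**Figure D1:**
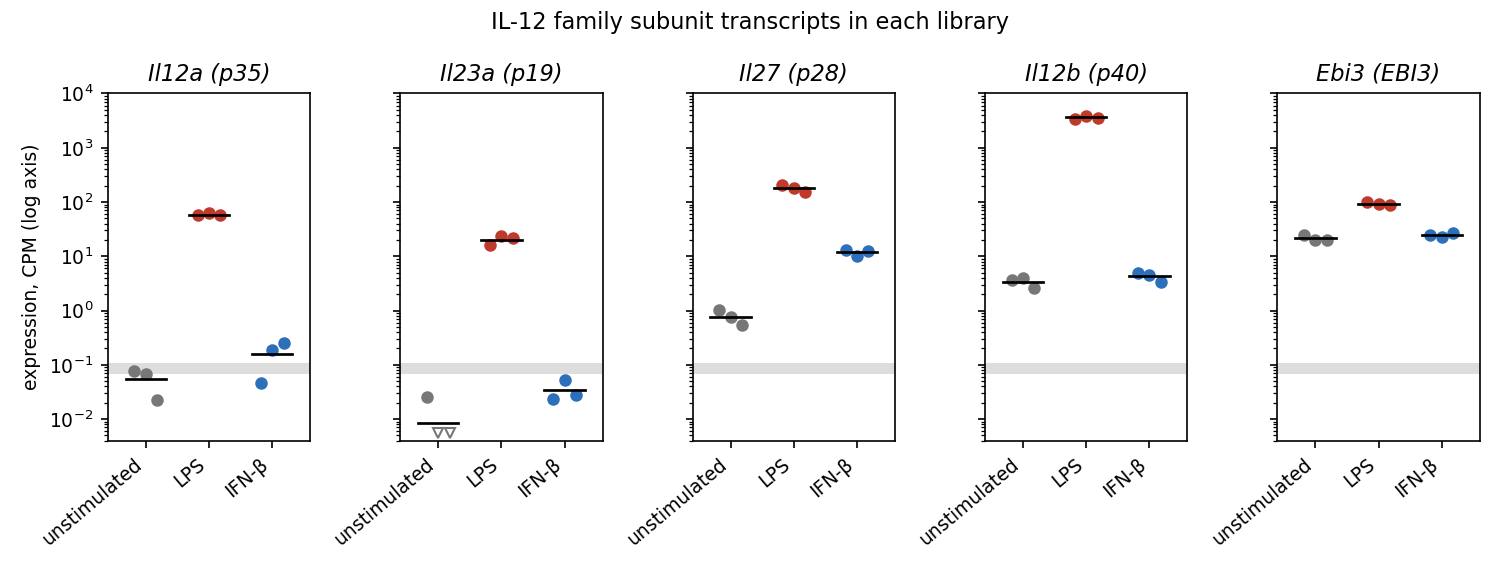
Expression (CPM, log axis) of the 5 subunit genes in each library (points, A to C from left to right) of unstimulated (grey), LPS-activated (red) and IFN-β-treated (blue) DCs. Black bars are means of 3 libraries, the grey band is the level of 3 counts (0.0674 to 0.106 CPM), and open triangles at the bottom are the libraries with 0 counts. Every gene was highest in the LPS libraries, and *Il27* alone had all IFN-β libraries above all unstimulated ones.

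The promoters of *Il12b* and *Ebi3*, which rose over 1000-fold and about 4-fold with LPS, are shown as examples from the family. Each line is the 250 bases before a RefSeq transcript start on GRCm38.p6, plus strand, at chr11:44399813-44400062 for *Il12b* and chr17:55952373-55952622 for *Ebi3*. Capitals mark a match to the NF-κB consensus.
Il12b: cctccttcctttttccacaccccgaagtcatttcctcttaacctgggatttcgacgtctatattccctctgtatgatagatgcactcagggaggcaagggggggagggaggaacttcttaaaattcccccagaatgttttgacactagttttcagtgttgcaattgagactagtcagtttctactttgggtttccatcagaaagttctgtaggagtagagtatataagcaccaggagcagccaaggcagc
Ebi3: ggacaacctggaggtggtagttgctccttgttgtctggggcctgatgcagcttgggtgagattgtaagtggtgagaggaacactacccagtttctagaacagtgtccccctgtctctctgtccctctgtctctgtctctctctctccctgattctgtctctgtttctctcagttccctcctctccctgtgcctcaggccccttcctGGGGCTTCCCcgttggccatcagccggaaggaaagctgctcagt
The match in *Ebi3* lies 44 to 35 bases before the start and reads as a match on both strands. Of the 32851 promoters in the RefSeq table, 7.25% held an NF-κB consensus match in the same window. Also searched on both strands were the interferon-stimulated element core GAAANNGAA (in 7.13% of all promoters), the AP-1 site TGANTCA (6.75%), the STAT site TTCNNNGAA (7.02%) and the C/EBP site TTGCNNAA (9.56%). None of these letters occurred in the windows of *Il12b*, of *Ebi3* or of either of 2 annotated starts of *Il12a*, and no NF-κB consensus match occurred in *Il12b* or *Il12a*. No promoter of *Il23a* or *Il27* was available in the RefSeq table, so neither gene was searched. A match of letters is a description and not evidence of binding.

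IFN-β changed the family unevenly. *Il27* rose to intermediate levels in all 3 libraries, while *Il12b*, *Ebi3*, *Il12a* and *Il23a* overlapped their unstimulated levels. In the edgeR fit 1 of 5 members was past the threshold, where 46.9% of all tested genes changed with IFN-β and 23.6% rose. All 3 IFN-β libraries were above all unstimulated ones for 28.5% of tested genes, and for 1 of the 5 members. The comparison uses the same unstimulated libraries as the LPS comparison, so the pair is not independent.

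*Il27* had 13.0, 10.3 and 12.5 CPM in IFN-β-treated libraries A, B and C, against 0.541 to 1.01 CPM in unstimulated libraries. The groups were far apart and the IFN-β libraries were close to each other. The rise was 15.5-fold (log2 fold change 3.96 ± 0.20 SE, edgeR adjusted p = 8.2e-07, exact permutation p = 0.1), the 96th largest among the tested genes. The IFN-β mean of 11.9 ± 1.42 CPM was 6.62% of the LPS mean. *Apobr*, the gene on the opposite strand, fell by 0.43 (log2) with IFN-β, to 70.8 CPM.

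*Il12b* had 4.92, 4.49 and 3.42 CPM with IFN-β, a range that overlapped the 2.62 to 3.93 CPM of unstimulated DCs. Its log2 fold change was 0.33 ± 0.17 (SE, edgeR adjusted p = 0.134). *Ebi3* had 24.7, 22.4 and 27.1 CPM with IFN-β, and again overlapped its unstimulated range. Its log2 fold change was 0.19 ± 0.10 (SE, edgeR adjusted p = 0.152). Both differences were close in size to the spread among libraries. With the library letters as a block, which the data support as pairs, both passed the threshold at the same size, *Il12b* at 0.34 (edgeR adjusted p = 0.0399) and *Ebi3* at 0.19 (edgeR adjusted p = 0.0487). The blocked fit thus called 3 of 5 members, where 27.9% of all genes rose in that fit. Leaving out 1 library also brought a call, for *Il12b* without IFN-β library C (0.47, edgeR adjusted p = 0.0444) and for *Ebi3* without unstimulated library A (0.29, edgeR adjusted p = 0.0336). Scaling by library size alone turned the *Ebi3* value to -0.12 and took the *Il12b* value to 0.03 (edgeR adjusted p = 0.893). This scaling moved the median of all genes by -0.31 in this comparison and by -0.58 in the LPS comparison.

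*Il12a* had 2, 7 and 9 counts in IFN-β-treated libraries, against 3, 3 and 1 in unstimulated libraries. Library A of the IFN-β group lay within the unstimulated range, and B and C lay above it. The pooled ratio was 2.83 with a 95% counting interval of 1.13 to 8.02, which covers counting error only, and the edgeR fit gave a log2 fold change of 1.45 ± 0.58 (SE, adjusted p = 0.0606). The call changed with the tool and with 1 library: DESeq2 gave 1.51 (adjusted p = 0.0445), and the edgeR fit without IFN-β library A gave 1.92 (adjusted p = 0.0062). *Il23a* had 1, 2 and 1 counts with IFN-β, and a difference from the 1, 0 and 0 counts of unstimulated DCs was not detectable at this depth (edgeR adjusted p = 0.235). No fold change is given for it.

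**Figure D2:**
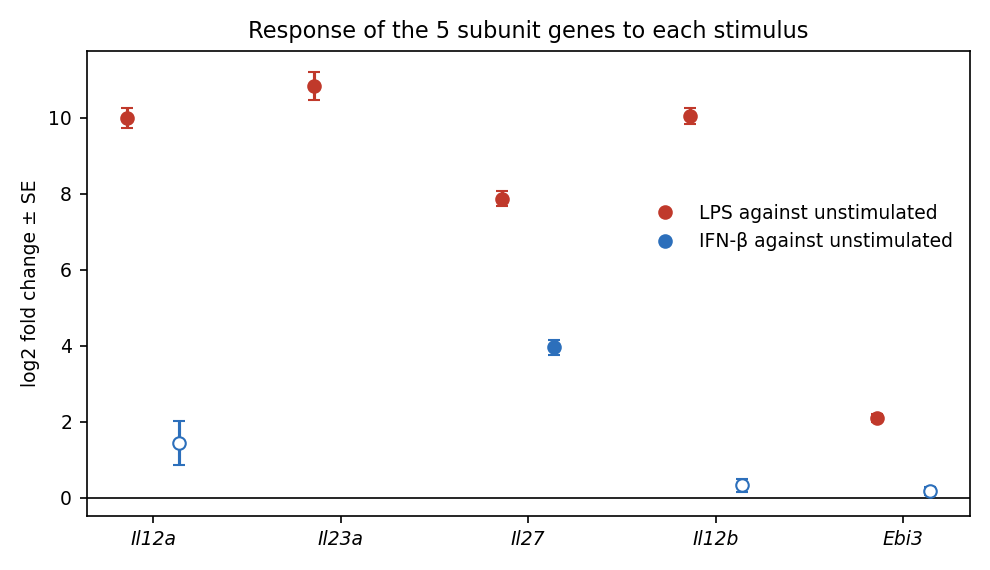
Log2 fold change (± SE, edgeR fit over all 9 libraries) of the subunit genes with LPS (red) and with IFN-β (blue), each against the same 3 unstimulated libraries. Filled points passed an adjusted p of 0.05 and open points did not. The IFN-β value of *Il23a* is not drawn because both groups were at or under 3 counts per library, and the LPS values of *Il12a* and *Il23a* rest on 7 and 1 unstimulated counts. *Il27* has filled points for both stimuli, at 7.87 and 3.96, and each other gene with LPS alone.

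Set directly against LPS-activated DCs, IFN-β-treated DCs had less of every subunit transcript. All 5 members were lower at an adjusted p under 0.05 in edgeR, where 49.1% of tested genes differed and 23.3% were lower. For *Il12a* and *Il23a*, which entered the test only through their LPS libraries, this too follows from the filter and is a description. For each member all 3 IFN-β libraries were below all 3 LPS libraries, as was so for 27.3% of tested genes. The gap differed widely among members. *Ebi3* was 3.78-fold lower with IFN-β (log2 difference -1.92 ± 0.10 SE, edgeR adjusted p = 1.8e-07). *Il27* was 15.1-fold lower (-3.92 ± 0.16 SE, edgeR adjusted p = 3.5e-08). *Il12b* was 842-fold lower (-9.72 ± 0.21 SE, edgeR adjusted p = 1.2e-09). *Il12a* and *Il23a* were lower by ratios of 0.00262 (95% counting interval 0.00155 to 0.00414) and 0.00166 (0.000453 to 0.00427) of the LPS level, on 18 and 4 IFN-β counts. The IFN-β mean CPM was 26.5% of the LPS mean for *Ebi3*, 0.118% for *Il12b*, 0.272% for *Il12a* and 0.171% for *Il23a*.

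Levels of different genes were compared per kilobase of exon (CPM per kb), since longer transcripts give more counts. In unstimulated DCs *Ebi3* led with 18.8 ± 2.28 CPM per kb, then *Il12b* with 1.73 ± 0.354 and *Il27* with 0.757 ± 0.231 (SD, n = 3), and *Il12a* and *Il23a* were at the depth limit. In LPS-activated DCs *Il12b* led with 1838 ± 94.9 CPM per kb. It was followed by *Il27* (177 ± 28.3), *Ebi3* (81.0 ± 5.56), *Il12a* (34.6 ± 1.36) and *Il23a* (9.05 ± 1.82). In IFN-β-treated DCs *Ebi3* led again (21.4 ± 2.04), with *Il27* now next (11.7 ± 1.39) and *Il12b* after it (2.17 ± 0.391). No neighbours in these orders had overlapping libraries, and the order of *Il12a* and *Il23a* outside LPS is not read. *Il27* moved from rank 11987 of 16229 genes in unstimulated DCs to 3404 with IFN-β and 296 with LPS.

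The balance within each cytokine pair was taken as the ratio of per-kilobase levels in the same library, which does not depend on library size. For IL-12 in LPS-activated DCs, p40 transcripts exceeded p35 transcripts 51.6- to 53.9-fold (geometric mean 53.1). For IL-23, p40 exceeded p19 183- to 249-fold (geometric mean 206). The shared subunit was thus in large transcript excess over both of its partners in each of the 3 libraries. For the IL-35 pair the shared EBI3 transcript was 2.34-fold above p35 (2.19 to 2.56 over the libraries).

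The IL-27 pair changed its balance between groups. In unstimulated libraries *Ebi3* exceeded *Il27* 21.4- to 32.3-fold (geometric mean 25.2). In LPS-activated libraries *Il27* exceeded *Ebi3* 1.93- to 2.34-fold (geometric mean 2.17). In IFN-β-treated libraries *Ebi3* was in excess again, by 1.68- to 1.92-fold (geometric mean 1.84). The 3 groups did not overlap, and the order of the subunits was reversed only in the LPS libraries. The log2 ratio of *Il27* to *Ebi3* was 5.77 higher with LPS and 3.78 higher with IFN-β than in unstimulated DCs, and it differed by -1.99 between IFN-β and LPS. Each of these had an exact permutation p of 0.1, the smallest possible, and an adjusted p of 0.2 over 12 ratio tests. In the other 9 tests a partner was at or under 3 counts in a library, so their values are not given. With coding length in place of exon length the log2 ratio of *Il12b* to *Il23a* in LPS-activated DCs moved from 7.68 to 6.72, and none of the ratios printed here turned.

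**Figure D3:**
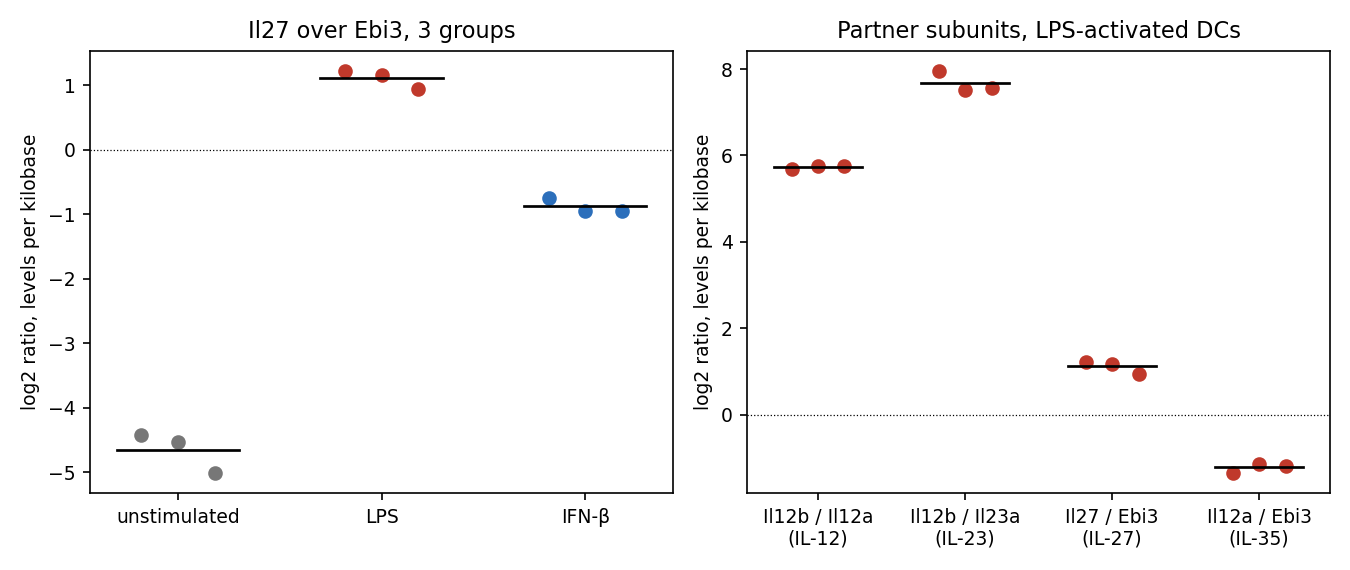
Log2 ratio of the per-kilobase levels of partner subunits, 1 point per library (A to C from left to right), with bars at the means of 3. The left panel shows *Il27* over *Ebi3* in the 3 groups, at -4.65 in unstimulated, 1.11 in LPS-activated and -0.88 in IFN-β-treated DCs on average. The right panel shows the 4 pairs in LPS-activated DCs, with p40 in excess of p35 by 5.73 and of p19 by 7.68, and p35 below EBI3 by 1.22 (-1.22). The dotted line marks equal levels.

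Receptors for these cytokines were expressed in the DC cultures themselves and split in direction under both stimuli. IL-12 signals through IL-12Rβ1 with IL-12Rβ2, IL-23 through IL-12Rβ1 with IL-23R, and IL-27 through IL-27Rα with gp130 (*Il6st*). The 3 receptor genes of IL-12 and IL-23 rose with LPS and with IFN-β, and both IL-27 receptor genes fell with each (5 of 5 past the edgeR threshold in both comparisons). By the same threshold 68.2% of all tested genes changed with LPS and 46.9% with IFN-β. *Il23r* rose from 2.59 ± 0.0836 to 38.9 ± 9.29 CPM with LPS (log2 fold change 3.91) and to 18.8 ± 4.89 CPM with IFN-β (2.86). *Il12rb1* rose from 0.883 ± 0.279 to 4.89 ± 1.28 CPM with LPS (2.47) and to 11.6 ± 3.10 CPM with IFN-β (3.73), and was higher with IFN-β than with LPS (1.25 ± 0.24, edgeR adjusted p = 0.0015). *Il12rb2* rose by 1.32 and 1.21. *Il6st* fell by 1.62 with LPS and by 0.38 with IFN-β, and *Il27ra* fell by 1.20 and by 0.41. The receptor list had a median log2 fold change of 1.32 with LPS and 1.21 with IFN-β, where the medians of all tested genes were -0.04 and -0.02.

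Among kinases and STAT factors that carry the receptor signal, *Jak1*, *Jak2*, *Tyk2*, *Stat3* and *Stat4* rose with both stimuli. *Stat3*, the main STAT of IL-23 signaling, rose by 1.73 with LPS and 0.56 with IFN-β, and *Tyk2*, which binds IL-12Rβ1, rose by 1.01 and 0.74. *Jak2*, which binds IL-12Rβ2 and IL-23R, rose by 2.12 and 0.74, and its rise was smaller with IFN-β than with LPS by a direct test (difference -1.38, edgeR adjusted p = 7.1e-07). *Stat4*, the main STAT of IL-12 signaling, rose by 0.75 and 0.59, and *Jak1* rose by 0.67 and 0.49. With library size alone as the scaling, *Jak1* lost its call in both comparisons and *Stat4* lost it with LPS. Of the lymphocyte genes that these cytokines switch on, *Ifng*, *Il17a*, *Il17f* and *Il22* were at or under 3 counts in every library, and *Tbx21* was not past the threshold (0.140 to 0.479 CPM on average).

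Of 12 transcription factor genes known to activate the subunit genes, 9 rose and 2 fell with LPS, where 32.8% of all tested genes rose and 35.4% fell. With IFN-β 9 rose and 1 fell, where 23.6% of all tested genes rose and 23.3% fell. The list medians were 1.11 and 0.44. *Nfkbiz*, a nuclear IκB protein needed for many secondary LPS response genes, rose by 4.18 with LPS and by 0.76 with IFN-β. The NF-κB genes *Nfkb1* and *Rel* rose by 2.13 and 1.95 with LPS and by 0.47 and 0.69 with IFN-β. *Irf1*, which acts on *Il12a* and *Il27*, rose by 2.40 with LPS and by 2.01 with IFN-β, the largest IFN-β rise of the list, and *Irf8* rose by 1.92 and 0.81. The AP-1 genes *Fos* and *Jun* fell by 2.29 and by 1.50 with LPS and were at 0.06 and 0.24, not past the threshold, with IFN-β. *Irf3* fell by 0.30 with IFN-β and was at -0.14 with LPS, not past the threshold. With library size alone as the scaling, 5 of the 12 passed with IFN-β, and *Irf5* (0.29 with LPS) turned to -0.29 and *Spi1* (0.58 with LPS) to -0.00027.

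Factors known to restrain the subunit genes were all past the threshold with LPS (5 of 5 higher), where 32.8% of all tested genes rose. The call of *Il10*, which entered the test only through its LPS libraries, follows from the filter. *Il10*, the cytokine that suppresses IL-12 production, rose from at most 0.0225 CPM in any unstimulated library to 6.09 to 15.2 CPM with LPS. In IFN-β-treated libraries it was between 0 and 0.0937 CPM. *Maf*, an activator of *Il10*, rose by 3.02 with LPS and by 1.25 with IFN-β, and *Atf3*, a repressor of Toll-like receptor targets, rose by 1.69 and 1.15. *Bcl3* and *Nfil3* rose by 1.39 and 0.69 with LPS and were at 0.23 and 0.33 with IFN-β, not past the threshold. Thus 2 of 5 passed with IFN-β, where 46.9% of all tested genes changed and 23.6% rose. With the library letters as a block 4 of 5 passed, where 27.9% of all tested genes rose in that fit. In the fits without unstimulated library B, unstimulated library C or IFN-β library A, 1 of 5 passed.

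The sensing machinery for each stimulus was present in unstimulated DCs. Of 6 LPS sensing genes, 5 rose and 1 fell with LPS, where 32.8% of all tested genes rose and 35.4% fell. The co-receptor gene *Cd14* rose by 3.21, from 75.8 ± 3.83 to 700 ± 36.0 CPM, and the receptor gene *Tlr4* fell by 0.63, from 140 ± 1.70 to 90.9 ± 17.2 CPM. The rises of *Ly96*, *Myd88*, *Ticam1* and *Ticam2* were 1.44, 1.36, 0.73 and 0.39, and the last turned to -0.19 with library size alone as the scaling. With IFN-β the first pair went the other way: *Tlr4* rose by 0.40 and *Cd14* fell by 0.27. In all 5 of 6 genes passed with IFN-β, where 46.9% of all tested genes changed. With library size alone as the scaling *Tlr4* was at 0.09 and lost its call. The count of genes passed was 3 without unstimulated library C and 2 without IFN-β library A. All 4 IFN-β sensing genes rose with both stimuli, where 32.8% of all tested genes rose with LPS and 23.6% with IFN-β. The largest rise was that of *Stat2* (2.48 with LPS and 2.15 with IFN-β). *Ifnar1*, *Ifnar2* and *Irf9* rose by 0.94, 1.70 and 1.20 with LPS and by 0.57, 0.54 and 0.74 with IFN-β.

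**Figure D4:**
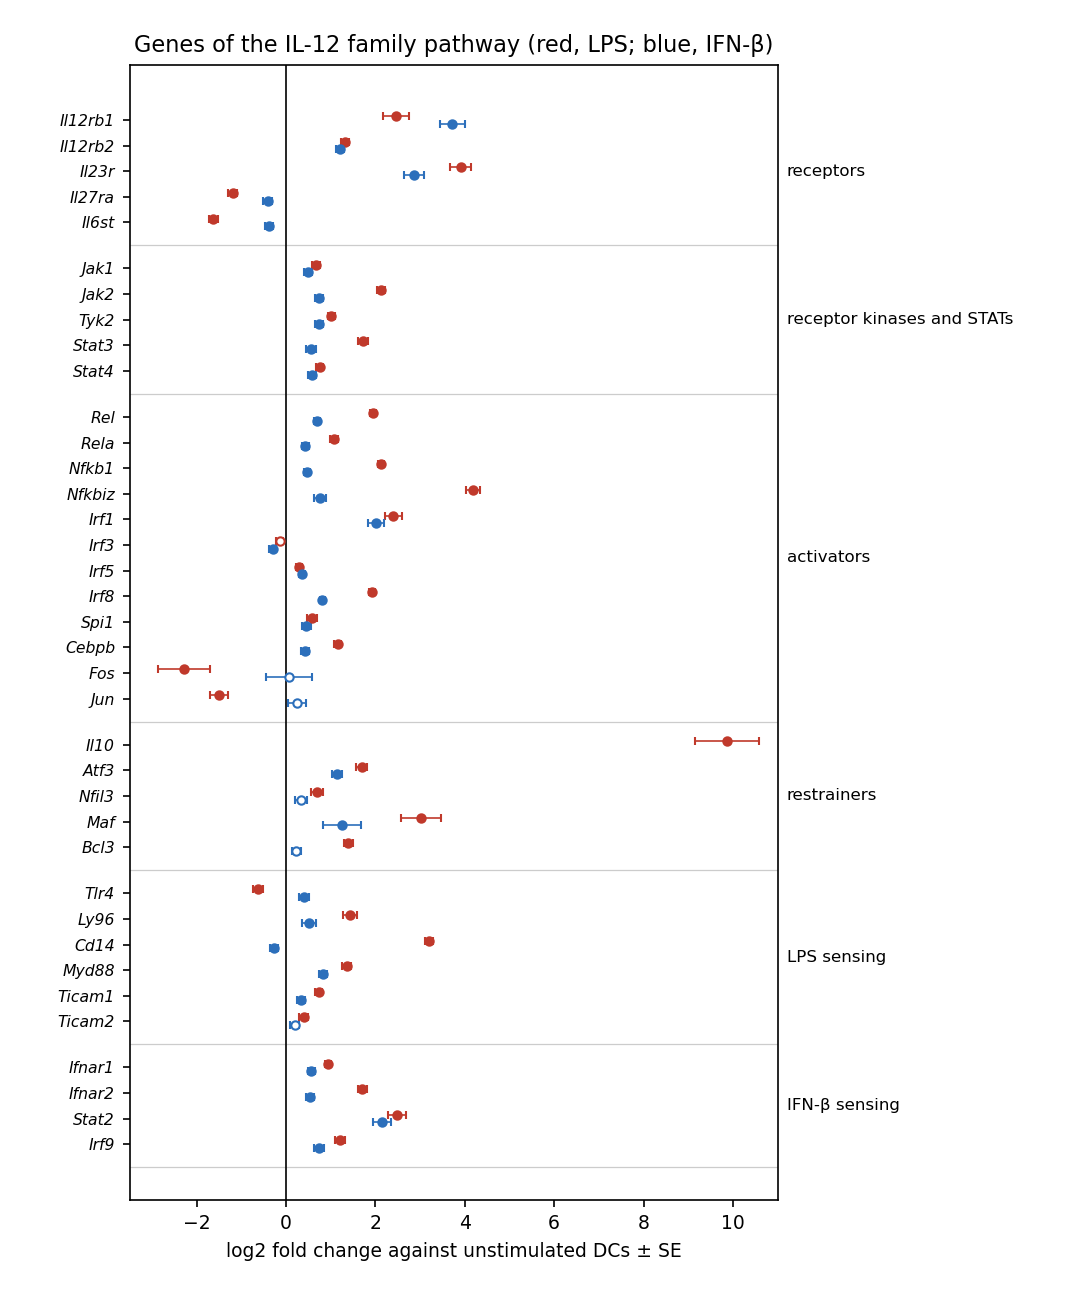
Log2 fold change (± SE, edgeR) against unstimulated DCs of genes of the 6 pathway lists, with LPS in red and IFN-β in blue; filled points passed an adjusted p of 0.05. *Il10* with IFN-β is not drawn, since it rests on counts in 1 library of each group. The IL-12 and IL-23 receptor genes lie right of 0 and the IL-27 receptor genes left of it for both stimuli, and *Cd14* and *Tlr4* lie on opposite sides for LPS and IFN-β.

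The genes whose levels over the 9 libraries were most like each member were found by the root mean square (RMS) difference of log2(CPM + 0.5), each gene centred on its own mean, among 13451 genes. *Il27* was closest to *Cd40*, the co-stimulatory receptor of DCs (RMS 0.203), and *Hdc*, which encodes the enzyme that makes histamine (0.228), with *Clic5* next (0.385). The first of these, *Cd40*, had log2 fold changes of 7.39 with LPS and 3.85 with IFN-β, beside 7.87 and 3.96 for *Il27*, and *Hdc* had 8.33 and 3.96. *Il12a* was closest to *Cxcl1*, a neutrophil chemokine (0.302), and *Il1b* (0.378), which rose by 7.30 and 7.14 with LPS and were at 0.08 and 0.45 with IFN-β, not past the threshold, and then to *Gm43386* (0.393). *Il23a* was closest to *Zfp811* (0.231) and *Cxcl5*, another neutrophil chemokine (0.263), and then to *Il1bos* (0.277), an antisense gene of *Il1b*. These 3 rose by 7.32, 6.17 and 6.75 with LPS. The added 0.5 CPM exceeds the unstimulated means of *Il12a* (0.0553 CPM) and *Il23a* (0.00845 CPM). It thus shortens their rises, which were 9.99 and 10.84 in the fit, and the genes named for them are near the shortened values. *Il12b* had no gene as close, with *Ptgs2*, the inducible prostaglandin synthase, at 0.761, *Il6* at 0.780 and *U90926* at 0.808. *Ebi3* was closest to *Lmo4* (0.105), *Sbds* (0.118) and *Cxcl16* (0.127), which rose by 2.07, 2.28 and 2.17 with LPS. Likeness over libraries of 3 groups mostly reflects the group means, and it depends on the measure: ranking by Pearson's r over the 9 libraries instead named none of the same genes for the same member (0 of 15), although *Cxcl1* and *U90926* were named for another member.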

How the data were processed

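RNA of 9 libraries was depleted of ribosomal RNA and sequenced as 100 bp pairs. The authors trimmed reads with Trim Galore (0.6.0 in the submitters' processing notes), mapped them with STAR (2.7.8a in the notes, another version in the methods) to mm10, and deposited raw counts per GENCODE gene, neither normalized nor filtered. Counts were analysed with edgeR 4.0.16 in R 4.3.3 (filterByExpr, TMM factors, quasi-likelihood F-tests, 1 term per group, all 9 libraries, Benjamini-Hochberg adjustment). Exact permutation tests were two-sided. GENCODE M21 lengths were used (55144 of 55471 identifiers matched). Counting intervals are 95% Clopper-Pearson, and they and the floor of 3 counts cover counting error only. No source says that libraries came from separate cultures or animals, so p-values measure the spread between these samples, which may be technical. Deviations from group means correlated at 0.115 to 0.470 across genes for the 9 same-letter pairs and at -0.400 to 0.0279 for the 18 others, so the letters pair samples by the data, and the block entered as an alternative. Replicates differed by more than sampling noise in every pair. Members, gene lists and alternatives were chosen with earlier results of these data known. Named list genes were those with the largest changes in each direction or counted as 5 or fewer, and for each member the 3 most alike genes. Alternatives were DESeq2 1.42.0, other scalings, filters and thresholds, a larger prior count, 2-group fits, the block, other gene lengths and leaving out each library. The fit was tested on simulated data. Knockdown samples were not analysed here. A few listed genes are not reported here.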

Additional observations from a re-analysis of the deposited data

How the results depend on the processing

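All LPS calls and all calls of IFN-β against LPS held, with their direction, for the members in every alternative that tested them, and *Il27* with IFN-β also did (log2 3.65 to 4.18 over alternatives and left-out libraries). With at least 10 counts in every library *Il12a* and *Il23a* were not tested, so 3 members were called in each of those comparisons. With IFN-β, DESeq2 called 2 members (*Il12a* at 1.51) and the replicate block called 3 (*Il12b* at 0.34, *Ebi3* at 0.19), and the block changed no other member call. Library size alone gave -0.12 for *Ebi3* and 0.03 for *Il12b*. Leaving out each library gave 1 to 2 called members with IFN-β, with log2 values of 1.0 to 1.92 for *Il12a*, 0.17 to 0.47 for *Il12b* and 0.12 to 0.29 for *Ebi3*. The cause of these changes was not tested. An added fold threshold (absolute log2 of at least 1) left 5429 genes with LPS (main 11084), 2052 with IFN-β (main 7631) and 2834 between them (main 7989).

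For the lists, library size alone gave 5 activators, 1 restrainer and 2 LPS sensing genes with IFN-β, and 1 IFN-β sensing gene between stimuli. The block gave 4 restrainers, and leaving out a library gave 1 to 3 restrainers and 2 to 5 LPS sensing genes. At least 10 counts left 3 restrainers between stimuli. With the longest transcript as length, the LPS log2 ratios were 5.36 for *Il12b* to *Il12a*, 7.32 for *Il12b* to *Il23a* and -0.84 for *Il12a* to *Ebi3*. With coding length they were 5.43, 6.72 and -0.71, and *Il27* to *Ebi3* was 0.90 with LPS and -1.09 with IFN-β. Of 764 alternative values, 724 were counted as unchanged. For fold changes this means the same direction and call, whatever the size. Limits: 3 libraries a group cannot go below an exact permutation p of 0.1, and RNA says nothing of secreted cytokine. Levels of *Il23a* outside LPS and of *Il12a* in unstimulated DCs lie at or under the depth limit. The level of *Il12a* with IFN-β rests on 2, 7 and 9 counts.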

Other observations

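Genes near the members on the chromosome were counted in the same edgeR fit. Within 100 kb of the 5 gene bodies lay 56 genes with a row in the counts, of which 32 were tested. With LPS 13 rose and 9 fell, so that 22 of 32 changed, close to the 68.2% of all tested genes. With IFN-β 6 rose and 9 fell, so that 15 of 32 changed, close to the 46.9% of all tested genes. These counts within 100 kb show nothing particular to the neighbours. Within 50 kb, 17 were tested, of which 11 rose and 2 fell with LPS, where 32.8% of all tested genes rose and 35.4% fell. With IFN-β 5 of the 17 rose and 2 fell, where 23.6% of all tested genes rose and 23.3% fell. Whether the genes within 50 kb differ from other genes was not tested. Beside *Il23a*, which had 1 to 2 counts per library with IFN-β, lay several genes that rose with both stimuli. *Stat2*, 3290 bases away, rose by 2.48 with LPS and by 2.15 with IFN-β, and *Timeless* rose by 2.47 and 1.88. *Apon* rose by 3.86 and 3.19, but its unstimulated libraries held only 0.0674 to 0.158 CPM, near the depth limit. It reached 1.17 to 1.72 CPM with LPS and 0.584 to 1.19 CPM with IFN-β. The fold changes of *Apon* thus rest on few unstimulated counts, and their size is uncertain. *Apon* entered the edgeR test only through its LPS and IFN-β libraries, so its calls follow from the filter and are descriptions. The counts of neighbours that rose include it. *Pan2*, on the other side, rose by 0.34 with LPS and was at -0.03 with IFN-β, not past the threshold. *Schip1*, the tested neighbour of *Il12a*, rose by 3.56 and 1.44. *Ublcp1*, the tested neighbour of *Il12b*, rose by 0.74 with LPS and was at 0.25 with IFN-β, not past the threshold. Next to *Ebi3*, *Yju2* rose by 0.74 with LPS and was at -0.06 with IFN-β, not past the threshold.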
